A study of Mus musculus with 6 samples.

Results

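The genes described here are 9 ADAMTS proteases (Adamts1, Adamts2, Adamts4, Adamts5, Adamts6, Adamts9, Adamts12, Adamts15 and Adamts17) and the serine protease gene Htra1, 10 genes in all, measured in the growth plate cartilage of Lkb1 mutant and control mice. They were chosen by name as secreted proteases that act on cartilage and connective tissue matrix, with earlier results of these data known. The lists of other genes below were also chosen that way, so the counts in them are descriptions. Of the 10, 9 had a probe set annotated to exactly 1 gene and were tested among 17020 genes, and Adamts2 was not analysed here. Where a gene had several probe sets, the one with the highest mean over the 6 arrays was used.

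Chondrocytes of the growth plate, the cartilage layer from which long bones grow, had been isolated from the femurs and tibiae of mice at postnatal day 30. There were 3 samples from mice with a conditional mutation of Lkb1 and 3 from control mice, and both groups had a mixed FVB, 129S6 and C57CL/6 background. The Cre driver, the allele and the genotype of the controls are not given in the sources used here. Total RNA of each sample, 300 ng, was labelled with biotin and hybridised to its own Affymetrix array, and the labels call the replicates biological without saying that they were separate animals, so a p-value here speaks only of the spread among these samples.

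ADAMTS proteases are secreted metalloproteases with thrombospondin repeats, made as inactive precursors that proprotein convertases such as furin activate. One branch of the family (Adamts1, Adamts4, Adamts5, Adamts9 and Adamts15) cleaves large proteoglycans such as aggrecan, which swells cartilage, and versican; Adamts4 and Adamts5 are known as aggrecanases, and in mice Adamts5 is the main aggrecanase of arthritic cartilage. Other branches remove the amino-terminal propeptide of fibrillar procollagens (Adamts2, Adamts3, Adamts14), cleave cartilage oligomeric matrix protein, COMP (Adamts7, Adamts12), or act on fibrillin microfibrils (Adamts6, Adamts10 and Adamts17). Htra1 belongs to another class, the serine proteases, and degrades several matrix proteins.

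Stk11, the gene that encodes the kinase LKB1, had a level of 7.39, 7.51 and 7.52 in mutant replicates 1, 2 and 3, against 8.68, 9.08 and 9.67 in control replicates 1, 2 and 3. All levels are given as log2(intensity + 1), and differences between groups are mutant minus control on that scale. The Stk11 difference was -1.67 (SE 0.22, n = 3 per group, limma adjusted p = 0.00387), and where its probes sit relative to the mutated stretch was not looked at. Chondrocyte markers were high in both groups: over 16 such genes, which include Col2a1, Acan and Sox9, the mean level was 10.82 to 10.94 in the mutants and 10.82 to 11.04 in the controls. Of the 16, 1 was called higher, the matrilin gene Matn1 (1.28, limma adjusted p = 0.0248), and 2 lower, the hypertrophic collagen gene Col10a1 (-0.50, adjusted p = 0.0114) and the transcription factor gene Sox6 (-0.38, adjusted p = 0.0282). The calls of Matn1 and Sox6 ended when control replicate 2 or any 1 mutant replicate was left out, where the highest adjusted p values were 0.0908 (Matn1) and 0.123 (Sox6), and that of Col10a1 ended without mutant replicate 1 (0.0539) or mutant replicate 2 (0.0546). Among all 17020 genes tested, 7.84% were called higher and 6.82% lower.

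The arrays differed in the level of marrow markers and of Y-linked genes, which touches the results below. Over 24 genes of erythroid, neutrophil and B lymphoid cells, the blood lineages of the bone marrow, the mean level was 6.03, 6.13 and 5.81 in mutant replicates 1, 2 and 3, against 8.40, 9.12 and 9.84 in control replicates 1, 2 and 3. Of these 24 genes 21 were called lower and none higher in the mutants, against 6.82% and 7.84% of all genes, and their summed intensity was 1646 to 2177 in the mutants and 13013 to 32582 in the controls. Control replicate 2 was the only array on which the Y-linked genes Uty and Eif2s3y stood above background, at 7.12 and 7.09, against 4.54 to 4.88 for both genes in the mutants and 4.79 to 5.12 in the other two controls. In RNA of a mixed tissue, fewer cells of a type and less RNA per cell cannot be told apart.

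Of the 9 tested genes of this group, 4 rose in the mutants, 5 did not pass the test and none fell. The genes that rose were Adamts4, Adamts9, Adamts12 and Htra1, 4 of 9, while 7.84% of all genes tested were called higher and 14.7% were called in either direction. None of the 9 was called lower, against 6.82% of all genes, although Adamts5 lay lower in every mutant and 1 of the 9 was lower at an unadjusted p under 0.05. The median difference of the 9 genes was 0.15, against 0.03 for all genes tested. That median is the value of Adamts15, a gene at background on every array, so it says little about the group. The groups did not overlap for 5 of the 9 genes, against 36.7% of all genes. All mutants were above all controls for the 4 genes that rose, against 20.0% of all genes, and below them for Adamts5, against 16.7%.

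**Figure D1:**
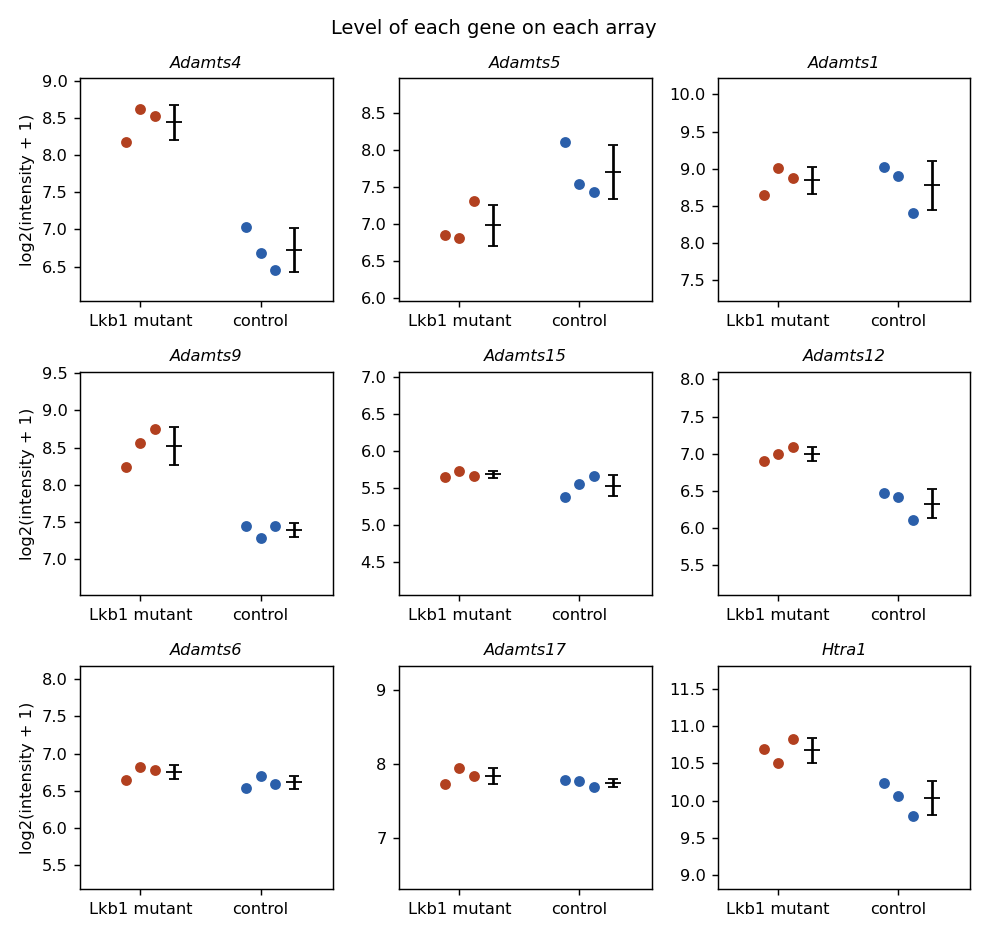
Level of each of the 9 tested genes, as log2(intensity + 1), on the 3 Lkb1 mutant and the 3 control arrays, with the mean and SD of each group beside the points and the same span of 3 log2 units on every axis. Adamts4, Adamts9, Adamts12 and Htra1 lie higher on all mutant arrays than on any control array, and Adamts5 lies lower.

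Among the proteoglycan-cleaving proteases, Adamts4 and Adamts9 rose and Adamts1, Adamts5 and Adamts15 did not pass the test. Adamts4 had a level of 8.18, 8.62 and 8.53 in mutant replicates 1, 2 and 3, against 7.04, 6.68 and 6.45 in control replicates 1, 2 and 3. The lowest mutant stood more than 1 log2 unit above the highest control. The difference was 1.72 (SE 0.18, n = 3 per group, limma adjusted p = 0.00136), a 3.29-fold higher level. A set of 1035 probe sets of olfactory receptor genes served as a measure of background, with a 95% point of 6.40 to 6.73 per array, and control replicate 3 was below it for Adamts4, so the background limits the size of this fold.

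Adamts5 had a level of 6.85, 6.81 and 7.30 in mutant replicates 1, 2 and 3. In control replicates 1, 2 and 3 it had 8.11, 7.54 and 7.44. All mutants lay below all controls, but the gap between mutant replicate 3 and control replicate 3 was small. Both groups were above background on every array. Mutant replicate 2, however, was close to the background point of its array (6.73), which may limit the size of the difference. The difference was -0.71 (SE 0.21, limma adjusted p = 0.0604), which misses the threshold of 0.05; it passed only when control replicate 3 was left out (-0.84, adjusted p = 0.0445).

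Adamts1 lies next to Adamts5 on chromosome 16, with no protein-coding gene between them in the RefSeq gene table of GRCm38.p6. Its level was 8.65, 9.01 and 8.88 in mutant replicates 1, 2 and 3, against 9.03, 8.90 and 8.40 in control replicates 1, 2 and 3. The groups overlapped, and the difference of 0.07 (SE 0.18, limma adjusted p = 0.836) was smaller than the spread within the controls.

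Adamts9, whose protein also cleaves versican and is related to the worm protease GON-1, had a level of 8.24, 8.57 and 8.75 in mutant replicates 1, 2 and 3, against 7.45, 7.28 and 7.44 in control replicates 1, 2 and 3. The controls were tight and every mutant was well above them. The gene rose by 1.13 (SE 0.14, limma adjusted p = 0.00267), 2.18-fold. Adamts9 is the best covered of these genes, with 6 probe sets, and each of them was called higher when every probe set was tested separately. Their differences ran between 0.60 and 1.30, with adjusted p up to 0.0116, while 7.76% of all 18563 probe sets tested that way were called higher and 14.2% were called in either direction.

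Adamts15, which also encodes an aggrecan-cleaving protease, was at background on every array. Its level was 5.65, 5.73 and 5.66 in the mutants, against 5.38, 5.55 and 5.66 in the controls, and no array exceeded the olfactory 95% point. Its mean in the controls was below the intensity filter of 5.56, so the gene entered the test through a mean that lies only just above it. The difference of 0.15 (limma adjusted p = 0.366) says little about a gene whose signal is not above background.

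Adamts12, which encodes a COMP-cleaving protease, rose in the mutants, with the controls near background. It had 6.90, 7.00 and 7.09 in mutant replicates 1, 2 and 3, against 6.47, 6.42 and 6.11 in control replicates 1, 2 and 3. All mutants but only 1 control exceeded the background point, so the fold is limited by it. The difference was 0.67 (SE 0.12, limma adjusted p = 0.0112), and without mutant replicate 3 the adjusted p was 0.0602. Comp itself, the gene of the substrate, was at 12.08 ± 0.04 in the mutants and 12.16 ± 0.03 in the controls (SD, n = 3 each), a difference of -0.08 (limma adjusted p = 0.55).

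Of the genes tied to fibrillin microfibrils, neither was called with its brightest probe set. Adamts6 had a level of 6.65, 6.82 and 6.78 in the mutants, against 6.53, 6.70 and 6.60 in the controls, and the groups overlapped (difference 0.14, limma adjusted p = 0.376). These levels lay close to the background point, and control replicate 3 was below it, which limits what the lack of a call says. Adamts17 was at 7.73, 7.95 and 7.84 in the mutants and at 7.79, 7.77 and 7.68 in the controls (difference 0.09, limma adjusted p = 0.567).

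The 5 probe sets of Adamts17 did not give the same answer. Probe set 10554061 was called higher by 0.45 (SE 0.09, limma adjusted p = 0.0185 over all probe sets), with mutants at 7.84, 8.05 and 7.89 and controls at 7.48, 7.52 and 7.43. The other 4 were not called, and their differences ran from -0.06 to 0.26. The call of Adamts17 thus depends on the probe set.

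**Figure D2:**
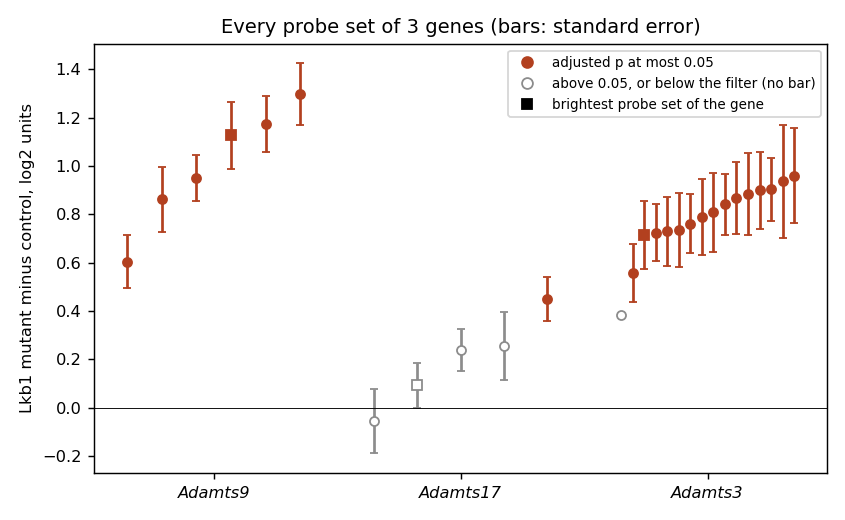
Difference between Lkb1 mutant and control arrays, in log2 units with its standard error, for every probe set of Adamts9, Adamts17 and Adamts3, sorted by size within each gene, with filled red markers for an adjusted p of at most 0.05 over all probe sets and squares for the brightest probe set. All 6 probe sets of Adamts9 and 15 of 16 of Adamts3 are called higher, but only 1 of 5 of Adamts17.

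Htra1 encodes a secreted serine protease and is the one gene of the group outside the ADAMTS family. Its level was 10.69, 10.50 and 10.83 in mutant replicates 1, 2 and 3, against 10.24, 10.07 and 9.79 in control replicates 1, 2 and 3. Every mutant lay above every control, all of them far above background, but the gap between mutant replicate 2 and control replicate 1 was narrower than the range of either group. Htra1 rose by 0.64 (SE 0.14, limma adjusted p = 0.0233), 1.56-fold. That call was the least stable of the 4: the adjusted p was 0.0711 without control replicate 2, 0.0831 without mutant replicate 1 and 0.101 without mutant replicate 3.

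Upstream sequences from the RefSeq promoter table of GRCm38.p6 are shown for the genes whose sequence held the motif described below. They are 3 genes that rose and Adamts1, which did not pass the test. The table held 6 of the 10 genes, and Adamts4, Adamts5, Adamts6 and Adamts15 were not among them. Each sequence below is the 250 bases before the gene's start, 5′ to 3′ in the direction of transcription. Capitals mark a CRE half-site, TGACG or CGTCA on the opposite strand, which the factor CREB can bind. This motif was searched because kinases activated by LKB1 are known to restrain the coactivators of CREB.
Adamts9, chr6:92943535-92943784, minus strand: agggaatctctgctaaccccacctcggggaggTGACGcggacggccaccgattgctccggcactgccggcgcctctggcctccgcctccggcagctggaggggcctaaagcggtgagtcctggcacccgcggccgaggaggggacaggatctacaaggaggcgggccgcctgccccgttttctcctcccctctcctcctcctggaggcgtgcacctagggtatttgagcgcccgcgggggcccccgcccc
Adamts12, chr15:11064523-11064772, plus strand: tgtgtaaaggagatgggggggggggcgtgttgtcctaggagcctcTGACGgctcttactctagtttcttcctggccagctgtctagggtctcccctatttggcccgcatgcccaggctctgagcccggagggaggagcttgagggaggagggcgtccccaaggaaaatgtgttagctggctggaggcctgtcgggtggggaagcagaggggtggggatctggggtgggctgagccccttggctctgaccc
Htra1, chr7:130935953-130936202, plus strand: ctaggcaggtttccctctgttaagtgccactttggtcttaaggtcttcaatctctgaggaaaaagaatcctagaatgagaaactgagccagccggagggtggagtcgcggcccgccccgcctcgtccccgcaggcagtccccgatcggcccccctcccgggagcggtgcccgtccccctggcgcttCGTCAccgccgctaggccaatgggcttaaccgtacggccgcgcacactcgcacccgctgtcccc
Adamts1, chr16:85803114-85803363, minus strand: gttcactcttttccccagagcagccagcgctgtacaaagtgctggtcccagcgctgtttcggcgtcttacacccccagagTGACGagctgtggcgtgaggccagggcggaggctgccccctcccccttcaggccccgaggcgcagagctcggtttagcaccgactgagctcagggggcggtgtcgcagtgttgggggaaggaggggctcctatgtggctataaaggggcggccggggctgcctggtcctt

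Each of the 4 windows held 1 such half-site, at 218 bases before the start in Adamts9, 205 in Adamts12, 64 in Htra1 and 170 in Adamts1. The windows of Adamts2 and Adamts17 held none, and 17.8% of all 32851 windows in the table held at least 1. The windows shown are those that held the motif, so its presence in all 4 was fixed by that choice. Among tested genes with a window, it was present in Adamts9, Adamts12 and Htra1, which rose. Of those that did not pass the test, Adamts1 held it and Adamts17 did not. The other motifs searched on both strands, TGANTCA for AP-1, TGTGGT for RUNX and GGAATG for TEAD, were in none of the 6 windows, and in 6.75%, 14.0% and 12.6% of all windows. These matches describe letters in a window and are no measure of binding.

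The marrow marker level, described above, differed between the groups and among the controls, and several of these genes ran in the opposite order to it among the controls. Control replicate 1, with the lowest marrow level of the controls, had the highest level of 7 of the 9 tested genes. Control replicate 3, with the highest marrow level, had the lowest level of 6. Some of these gaps were very small, as for Adamts9 at 7.45 in control replicate 1 and 7.44 in control replicate 3. The share of all genes with the same order was not counted, so these counts only describe 3 arrays. Against control replicate 1 alone, a comparison with a single control and no test, the difference was 1.40 for Adamts4, 1.07 for Adamts9, 0.53 for Adamts12 and 0.44 for Htra1. Control replicate 1 was the highest control for each of these 4 genes and lay below every mutant. Their direction and smaller size there were thus fixed in advance. Adamts5 was at -1.12 in that comparison, farther from 0 than against all controls because control replicate 1 was its highest control too. Adamts1 was at -0.18.

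**Figure D3:**
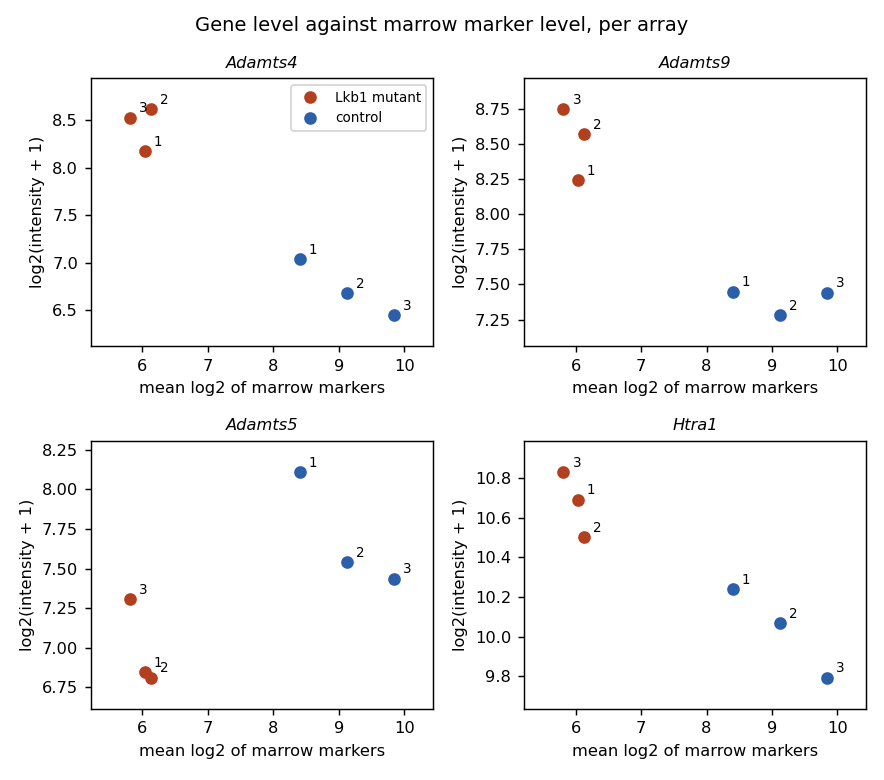
Level of Adamts4, Adamts9, Adamts5 and Htra1 (y axes, log2(intensity + 1)) against the mean log2 level of 24 erythroid, neutrophil and B lymphoid genes (x axes), 1 point per array with its replicate number. The marrow level is 5.81 to 6.13 in the Lkb1 mutants and 8.40 to 9.84 in the controls, with no array between the groups. Control replicate 1 lies highest among the controls in all panels, but for Adamts9 it is almost level with control replicate 3 (7.45 and 7.44).

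Markers of other mesenchymal and vascular cells were counted in the same way, beside the 7.84% of all genes called higher and the 6.82% called lower. Of 10 markers of tendon and fibrous tissue 7 were called higher and 0 lower, and their summed intensity was 20382 to 21496 in the mutants and 11225 to 13398 in the controls. Of 10 endothelial genes 7 rose and none fell, with sums of 1558 to 1853 in the mutants and 942 to 1126 in the controls. Of 8 smooth muscle and pericyte genes 5 rose and 1 fell, with sums of 4074 to 4496 in the mutants and 2610 to 3038 in the controls.

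Among these markers, Tnmd, the tendon gene tenomodulin, rose by 2.38 (limma adjusted p = 0.00121), and Emcn, the endothelial sialomucin endomucin, by 1.47 (adjusted p = 0.000485). Acta2, smooth muscle actin, and Rgs5, a pericyte gene, rose by 2.30 and 2.20 (adjusted p = 0.000239 and 0.00026). In the same list Cspg4 was the gene that fell (-0.34, limma adjusted p = 0.038), and Myh11 and Cnn1 were not called. Of 9 macrophage genes 7 rose and 2 fell, with sums of 3720 to 5563 in the mutants and 3913 to 5880 in the controls. The 7 rose by 0.67 to 0.98. Those that fell were Cd14 (-1.22, limma adjusted p = 0.0443) and Lyz2 (-0.98, limma adjusted p = 0.0433). Lyz2 was the brightest of the 9 on every array, so it weighs most in the sums. Of 4 tested osteoblast genes none was called, with sums of 6377 to 7199 in the mutants and 6221 to 7157 in the controls. Of the marrow markers, the 5 tested erythroid genes were above background on no mutant array, while Camp, Ngp, Vpreb1 and Ebf1 were above it on all mutant arrays. The part of the cell types named above, of the marrow level and of the sex of the animals in the differences of the proteases was not tested.

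Of the other 10 ADAMTS genes 2 rose and none fell, against 7.84% of all genes called higher and 6.82% lower. Adamts3, classed with the procollagen N-proteinases, had a level of 8.80, 9.14 and 8.93 in the mutants, against 8.38, 8.37 and 7.98 in the controls. It rose by 0.71 (SE 0.14, limma adjusted p = 0.0167), and 15 of its 15 probe sets above the filter were called higher, by 0.56 to 0.96. The gene's call ended when mutant replicate 2 (adjusted p = 0.0674) or mutant replicate 3 (0.0669) was left out. Adamts10, a fibrillin-related protease, rose by 0.40 (SE 0.09, adjusted p = 0.0264), with adjusted p of 0.0857 to 0.105 when any 1 mutant replicate was left out. The other 8 genes of the family, from Adamts7 to Adamts20, had differences of -0.15 to 0.13. Adamts8, Adamts16 and Adamts19 were above background on no array, and Adamts7 and Adamts13 on 1 array each. For those genes the lack of a call says little.

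ADAMTS-like proteins share the family's repeats but lack the protease domain, and several bind fibrillin. Of 7 such genes 3 rose and none fell, against 7.84% and 6.82% of all genes. Adamtsl3 was at 7.00, 7.15 and 7.09 in the mutants, against 6.18, 6.06 and 6.11 in the controls, where all arrays were at background. It rose by 0.97 (SE 0.09, limma adjusted p = 0.00088). Adamtsl4, whose human gene is mutated in dislocation of the lens, rose by 0.83 (SE 0.12, adjusted p = 0.00498), and Adamtsl1 by 0.43 (adjusted p = 0.0399), a call that ended under 9 of the 13 alternatives that tested it.

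**Figure D4:**
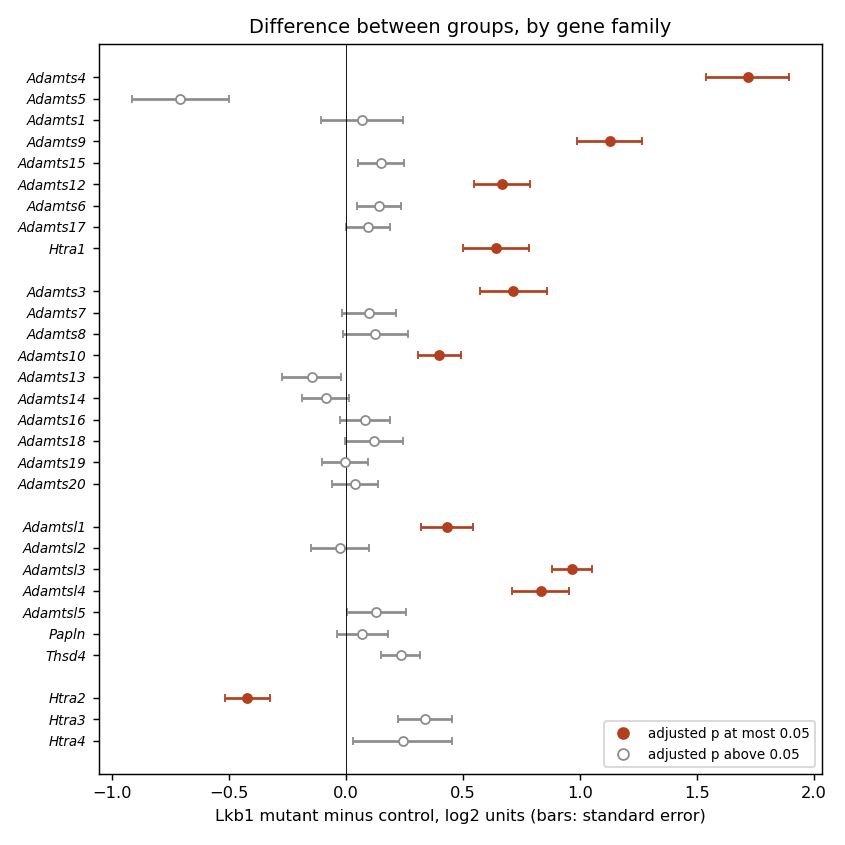
Difference between Lkb1 mutant and control arrays in log2 units, with its standard error, for the 9 tested proteases (top block), the other ADAMTS proteases, the ADAMTS-like proteins and the other HtrA proteases. Filled red points have a limma adjusted p of at most 0.05; the red points lie to the right of 0 except for Htra2, and Adamts5 is the lowest point.

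Of the relatives of Htra1, Htra2 fell and the others were not called. Htra2, a mitochondrial protease, was at 8.55, 8.34 and 8.51 in the mutants, against 8.92, 8.81 and 8.93 in the controls. It fell by 0.42 (SE 0.10, limma adjusted p = 0.0257), and the call ended when control replicate 2 or any 1 mutant replicate was left out (adjusted p = 0.0593 to 0.102). Htra3, the secreted relative closest to Htra1, was at 11.00, 10.80 and 10.74 in the mutants and 10.68, 10.49 and 10.37 in the controls (difference 0.34, adjusted p = 0.0978; 0.0423 without control replicate 1). Htra4 differed by 0.24 (adjusted p = 0.502).

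Of 10 genes listed as protease inhibitors and clearance receptors, 6 rose and none fell, against 7.84% of all genes called higher and 6.82% lower. A2m, which encodes the plasma protease trap alpha-2-macroglobulin, was at 10.69, 10.73 and 10.91 in the mutants, against 9.16, 8.76 and 8.34 in the controls. It rose by 2.02 (SE 0.19, limma adjusted p = 0.00113), 4.07-fold. Timp4, a tissue inhibitor of metalloproteases, ranged between 6.99 and 8.88 in the mutants (mean 7.96) and was at background in all controls, at 5.59 to 6.00. It rose by 2.23 (SE 0.42, adjusted p = 0.013), with an adjusted p of 0.0552 without control replicate 2 and 0.0556 without mutant replicate 3. Serpinf1 rose by 1.46 (SE 0.21, limma adjusted p = 0.00526) and Timp2 by 0.83 (SE 0.11, adjusted p = 0.00415). Serpinf1 is listed by its serpin family, and its product, pigment epithelium-derived factor, is not itself known as a protease inhibitor. Control replicate 1 was the highest control for A2m, Timp4, Serpinf1 and Timp2, so the differences against it alone, with no test, had to be smaller. They were 1.62 for A2m, 1.96 for Timp4, 0.98 for Serpinf1 and 0.65 for Timp2.

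None of 4 proprotein convertase genes was called. The smallest p-values were those of Pcsk5, which differed by 0.32 (limma adjusted p = 0.0742; 0.0321 without control replicate 1), and Pcsk7, which differed by -0.18 (adjusted p = 0.182).

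Among 17 tested substrate genes, 5 rose and none fell, against 7.84% and 6.82% of all genes, the 5 being Vcan, Col1a1, Col1a2, Col3a1 and Ltbp1. Vcan, the gene of the proteoglycan versican, was at 8.92, 9.38 and 9.52 in the mutants, against 7.67, 8.28 and 7.69 in the controls. It rose by 1.39 (SE 0.21, limma adjusted p = 0.00613), 2.63-fold. Col1a1 and Col3a1, which encode fibrillar collagens and are also among the fibrous tissue markers, rose by 1.91 (SE 0.15) and 1.73 (SE 0.19), with adjusted p of 0.00052 and 0.00184. Ltbp1, a latent TGF-beta binding protein, rose by 0.88 (adjusted p = 0.00986; 0.0513 without mutant replicate 3).

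Acan, the substrate that gave the aggrecanases their name, did not pass the test. It had a level of 12.04, 12.16 and 12.16 in the mutants, against 12.15, 12.17 and 12.13 in the controls (difference -0.03, SE 0.08, limma adjusted p = 0.862). Acan and Comp were brighter than 99.6% of all probe sets on every array, near the top of the scale, where the highest value of any probe set was 13.14, and whether such bright signals still follow the RNA amount was not tested.

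**Figure D5:**
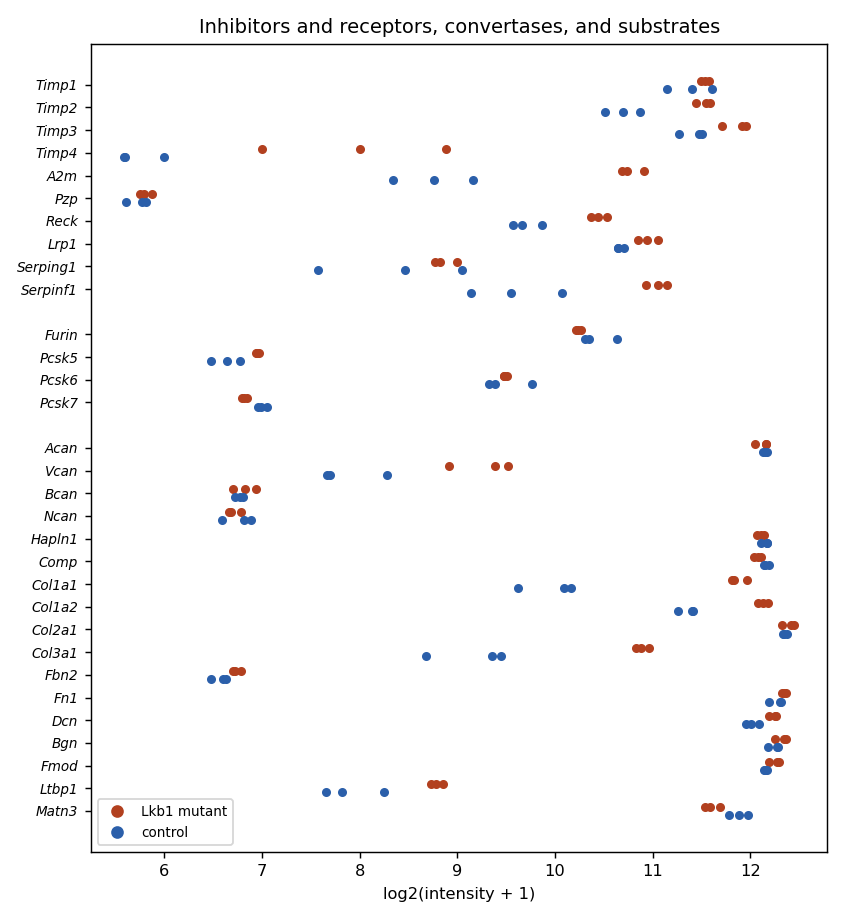
Level of each tested gene listed as an inhibitor or clearance receptor (top block), proprotein convertase (middle block) or substrate (bottom block), as log2(intensity + 1). Each row has 3 Lkb1 mutant arrays above 3 control arrays. Timp4, A2m, Serpinf1, Vcan, Col1a1 and Col3a1 show the largest differences between group means, while Acan, Comp and Col2a1 overlap or lie close together near the top of the scale.

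The level patterns of the 9 genes over the 6 arrays were alike for those that rose. Pearson's r was 0.87 to 0.98 for each pair among Adamts4, Adamts9, Adamts12 and Htra1, and -0.48 to -0.69 between Adamts5 and each of them. These coefficients describe 6 points that share 2 groups and the same arrays, so they mostly restate the group differences. By the same measure over all genes tested, Kcne4, Wipf3 and Il17d were most like Adamts4 (r = 0.998 each), Lap3, Ap5m1 and Fbxw8 most like Adamts5 (r = 0.994, 0.986 and 0.985), and Tsr2, Iffo2 and 1500009C09Rik most like Htra1 (r = 0.999, 0.998 and 0.998). They were picked for the highest r among 17020 genes over 6 arrays, so a high r came with the choice. Wipf3, Lap3, Ap5m1, Fbxw8 and Tsr2 were not called, with differences of -0.19 to 0.24. The others were called higher, by 0.51 to 0.89. Among other alternatives, the calls of Iffo2 and 1500009C09Rik ended without mutant replicate 1.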

How the data were processed

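The authors deposited 1 table of probe set intensities, on a linear scale, for 6 single-colour arrays; per the labels, 300 ng of total RNA was labelled with biotin by a whole-transcript kit. The steps of summary, background correction and normalisation before deposit are not stated in those sources. Array medians were 82.4 to 90.5; the number of arrays limits the precision. Gene names are those of the platform annotation, brought up to RefSeq (GRCm38.p6) through gene numbers: of 35512 probe sets, 21789 had 1 gene, 1621 several and 12102 were not listed. Values were taken as log2(intensity + 1); probe sets in the lowest 25% by mean (below 5.56) were left out, and the brightest per gene was kept. The comparison used lmFit and eBayes of limma 3.58.1 (R 4.3.3), two-sided; p-values were adjusted by Benjamini-Hochberg over the 17020 genes, over 18563 probe sets where each was tested separately, and over the genes of each alternative fit. The named genes are all tested proteases, Stk11, up to 4 called genes of each other list, main substrates, and the 3 genes most like Adamts4, Adamts5 and Htra1. Genes, lists and tests were chosen with earlier results of these data known. Testing every probe set separately was chosen after seeing the data.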

Additional observations from a re-analysis of the deposited data

How the results depend on the processing

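Tried were no filter and a filter at the median, quantile normalisation, arrays centred on their medians, averaged probe sets, a pseudocount of 16, an intensity trend, the replicate number as a block, leaving out each array, and control replicate 1 as the only control (values only). Over the first 14 of these, Adamts4 (adjusted p 0.000603 to 0.0109) and Adamts9 (0.00199 to 0.0167) were called every time. With 1 array left out, 2 to 4 of the 9 proteases were called higher, the fewest without mutant replicate 3, and 0 to 1 lower, the 1 being Adamts5 without control replicate 3. Over all genes the same fits called 512 to 1642 higher and 424 to 1640 lower; without control replicate 2 the counts were 730 and 599. In the lists of relatives, inhibitors, convertases and substrates, 10 to 18 were called higher, against 16 with all arrays, and 0 to 1 lower, against 1; an intensity trend called 2 lower. The cause was not tested. Of 48 named genes, 16 had a call that was gained or lost under at least 1 alternative, and none had a call that was reversed. Same-numbered arrays did not all deviate together: r was 0.08, 0.21 and -0.08 for numbers 1, 2 and 3, against -0.18 to 0.11 for arrays of different number. The r of number 2 was the highest of all these, but the numbers were not taken as pairs in the main fit. With the replicate block, 4 proteases were called higher and 0 lower, and over all genes 1061 and 970.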
